A study of Mus musculus with 16 samples.

Results

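The comparison described here is that of the ileum of mice that carried 1 of a pair of *Bifidobacterium breve* strains as their only bacterium. It uses 8 of the 16 libraries of the series, 4 from mice with the wild-type (WT) strain and 4 from mice with the Δchat strain, which does not make acetylcholine. Its members are the genes that passed a filter on low counts, 14496 of the 35647 in the table, and 21151 genes were not tested. The mice of both groups were wild-type in genotype, were raised germ-free, were given the bacterium for 5 weeks and were kept in gnotobiotic cages. WT and Δchat below therefore name the bacterium and not the mouse. The cells were labelled lamina propria immune cells, taken between 40% and 80% Percoll, and RNA was captured by its poly-A tail. The design states 4 mice per group. Age, sex and mouse strain are not given in the sources used here, nor is the number of cages or litters.

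The lamina propria is the connective tissue under the gut epithelium. In the ileum it holds plasma cells that secrete IgA, T cells, innate lymphoid cells, macrophages, dendritic cells and granulocytes, together with fibroblasts, vessels and nerve fibres. Acetylcholine is a transmitter of nerves, acts through muscarinic and nicotinic receptors, and is also made by some immune, epithelial and bacterial cells. The comparison asks how the RNA of the immune cell fraction differs when the bacterium cannot make acetylcholine. Fibroblast, vessel, nerve and epithelial genes were read in that fraction, and whole mucosa was not measured.

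Libraries held 15940467 to 23561881 estimated counts. Expression is given in CPM, read counts scaled to a common library size, and differences are log2 fold changes of Δchat over WT with their standard error. Adjusted p values are those of the edgeR quasi-likelihood test with Benjamini-Hochberg adjustment over all 14496 genes, unless another tool is named. Spearman correlations between replicates ran from 0.981 to 0.989 in WT and from 0.963 to 0.989 in Δchat. Δchat replicates 1 to 4 correlated on average at 0.9735, 0.9672, 0.9702 and 0.9752 with the rest of their own group. With the WT libraries they correlated at 0.9700, 0.9702, 0.9799 and 0.9744, so that replicates 2 and 3 were closer to WT. *Ptprc*, the pan-leukocyte marker CD45, stood at 736, 761, 783 and 696 CPM in WT replicates 1 to 4 and at 815, 835, 569 and 792 in Δchat replicates 1 to 4. The leukocyte marker was present in every library, lowest in Δchat replicate 3, while some lists of cell type markers varied far more. Others did not, such as the dendritic cell list, which summed to 1087 to 1281 CPM in WT and 1013 to 1362 CPM in Δchat. The fibroblast list had a summed level of 10268, 6358, 8919 and 8220.3 CPM in WT replicates 1 to 4, and of 2152, 2122, 9854 and 3899 CPM in Δchat replicates 1 to 4. Only Δchat replicate 3 reached the WT range. The 22 macrophage genes tested summed to 2989.9, 9748, 4528 and 2453 CPM in Δchat replicates 1 to 4, against 3289.6 to 4624 in WT, so that Δchat replicate 2 stood above all others. B cell genes summed to 3364, 990.3, 872 and 2971 CPM in Δchat replicates 1 to 4, against 1199 to 2282 in WT. Δchat replicates 1 and 4 were high for B cells and replicates 2 and 3 low. In bulk RNA, fewer cells of a type and less RNA per cell cannot be told apart.

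**Figure D1:**
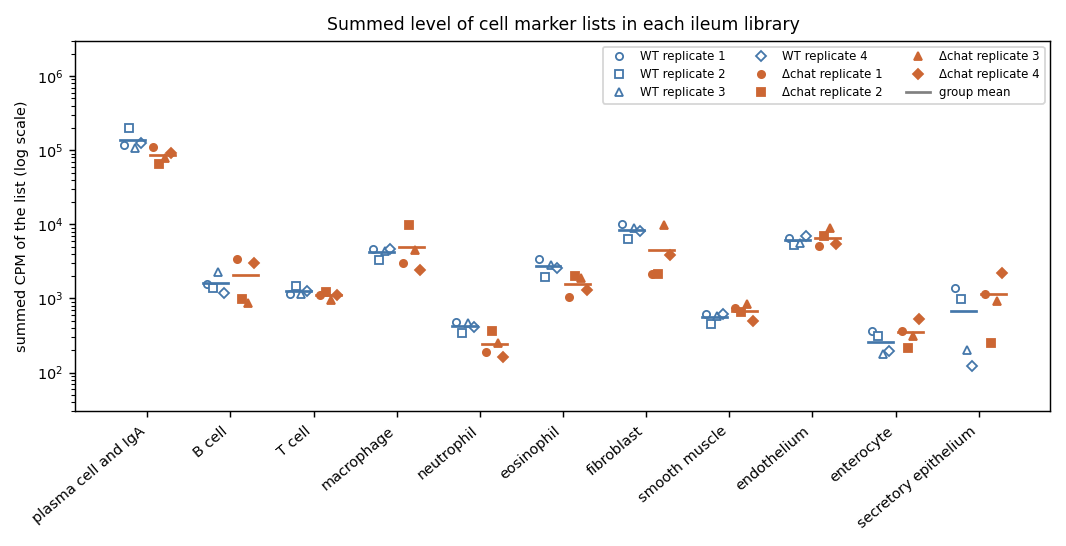
Summed CPM (log scale) of the tested genes of 11 cell marker lists in each ileum library, open symbols for WT, filled symbols for Δchat, horizontal lines for group means. Fibroblast levels were low in Δchat replicates 1 and 2, macrophage levels were highest in Δchat replicate 2, and B cell levels were highest in Δchat replicates 1 and 4.

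Exactly 3 genes passed the test, all lower with Δchat *B. breve* (0.0207% of the genes tested), and 0 were higher (0%). *Alox15* (ENSMUSG00000018924) encodes a lipoxygenase that oxygenates arachidonic and linoleic acid in eosinophils and some macrophages. It stood at 21.9, 23.1, 25.1 and 8.37 CPM in WT replicates 1 to 4 and at 2.20, 2.38, 1.74 and 2.40 CPM in Δchat replicates 1 to 4. The 4 Δchat libraries lay close together and below every WT library, of which replicate 4 was the lowest. *Alox15* fell 8.99-fold (log2 fold change -3.17 ± 0.34, adjusted p = 0.0498).

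*Il1a* (ENSMUSG00000027399), the alarmin interleukin 1 alpha, stood at 59.6, 41.5, 61.7 and 32.6 CPM in WT replicates 1 to 4 and at 9.77, 14.1, 11.7 and 9.27 CPM in Δchat replicates 1 to 4. WT replicate 4 was again the lowest of its group, and the groups did not overlap. *Il1a* fell 4.35-fold (-2.12 ± 0.23, adjusted p = 0.0498). *Wnt11* (ENSMUSG00000015957), a secreted Wnt ligand that mostly signals without beta-catenin, stood at 13.96, 14.1, 14.1 and 10.8 CPM in WT and at 3.05, 4.61, 4.73 and 4.76 CPM in Δchat, each in the order of replicates 1 to 4. WT replicate 4 and Δchat replicate 1 stood below the others of their group, and the groups did not overlap. *Wnt11* fell 3.07-fold (-1.62 ± 0.17, adjusted p = 0.0498). Its level in Δchat replicate 3, the library with fibroblast genes at the WT level, was like that in Δchat replicates 2 and 4. The part of the fibroblast level in the values of *Wnt11* was not tested.

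The 3 calls were close to the threshold. At an unadjusted p below 0.05 stood 884 lower genes (6.1%) and 697 higher genes (4.81%), and the libraries of the groups did not overlap in 594 lower genes (4.1%) and in 470 higher genes (3.24%). DESeq2 called 242 lower (1.49%) and 116 higher genes (0.712%), and limma-voom with quality weights called 125 lower and 39 higher. Leaving out Δchat replicate 3 gave 247 calls by edgeR, of which 214 were lower and 33 higher, with all 3 genes among them. Without Δchat replicate 1, Δchat replicate 4 or WT replicate 1, 2 or 3, edgeR called 0 genes, with 649 to 795 lower and 535 to 668 higher genes at an unadjusted p below 0.05. Without Δchat replicate 2 it called 7, and without WT replicate 4 it called 11.

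In colon, the strain effects of these 3 genes were positive and did not pass (adjusted p = 0.361 for *Alox15*, 0.639 for *Il1a* and 0.482 for *Wnt11*). *Alox15* stood at 2.79, 3.91, 1.76 and 7.90 CPM in colon WT replicates 1 to 4 and at 5.74, 7.89, 6.51 and 7.66 CPM in colon Δchat. Its strain effect was 0.77 ± 0.39 in colon, and the effect in ileum minus that in colon was -3.92 ± 0.56 (adjusted p = 0.0269). For *Il1a*, that difference was -2.37 ± 0.36 (adjusted p = 0.0325), with 0.27 ± 0.26 in colon, and for *Wnt11* it was -1.87 ± 0.25 (adjusted p = 0.0269), with 0.27 ± 0.18 in colon. The difference between tissues passed for 9 of 15198 genes (0.0592%), all with the more negative effect in ileum. Beside these 3, they were *Mmp25*, *Mmp9*, *Retnlg*, *Rab44*, *Serpinb2* and *Alox5ap*.

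Of those 6, the neutrophil-type genes *Mmp25* and *Mmp9* encode matrix metalloproteinases, *Retnlg* a secreted resistin-like protein of neutrophils, *Serpinb2* an inhibitor of plasminogen activators, *Rab44* a large Rab GTPase of granulocytes and mast cells, and *Alox5ap* the protein that hands arachidonic acid to 5-lipoxygenase. The differences between tissues were -1.79 ± 0.27 for *Mmp25* (adjusted p = 0.0293), -1.95 ± 0.32 for *Mmp9* (0.0388), -3.45 ± 0.57 for *Retnlg* (0.0438), -3.67 ± 0.58 for *Rab44* (0.0348), -3.75 ± 0.53 for *Serpinb2* (0.0269) and -1.10 ± 0.18 for *Alox5ap* (0.0348). *Alox5ap* differed from the rest in that its colon effect of 0.78 ± 0.12 was larger in size than its ileum effect of -0.35 ± 0.13. Picked out after the values were seen, WT replicate 4 had an opposite place in the tissues. It was the lowest WT library in ileum for *Alox15*, *Il1a*, *Retnlg*, *Rab44*, *Serpinb2*, *F5*, *Mmp25* and *Cxcl3*, and the highest WT library in colon for each of these. *Retnlg*, for example, stood at 29.8, 27.9, 25.8 and 7.73 CPM in ileum WT replicates 1 to 4 and at 3.18, 3.73, 2.76 and 7.50 CPM in colon WT replicates 1 to 4. For *Wnt11* and *Dio2*, WT replicate 4 was the lowest WT library in ileum but not the highest in colon. For *Mmp9* it was the highest in colon but not the lowest in ileum. With a block for the mouse, 3 genes passed instead of 9. With only the ileum library of WT replicate 4 left out, 11 genes differed between tissues, and without that of Δchat replicate 2, 35 did. Without any 1 of the other 6 ileum libraries, 0 did. The colon library of the mouse stayed in each of these fits.

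**Figure D2:**
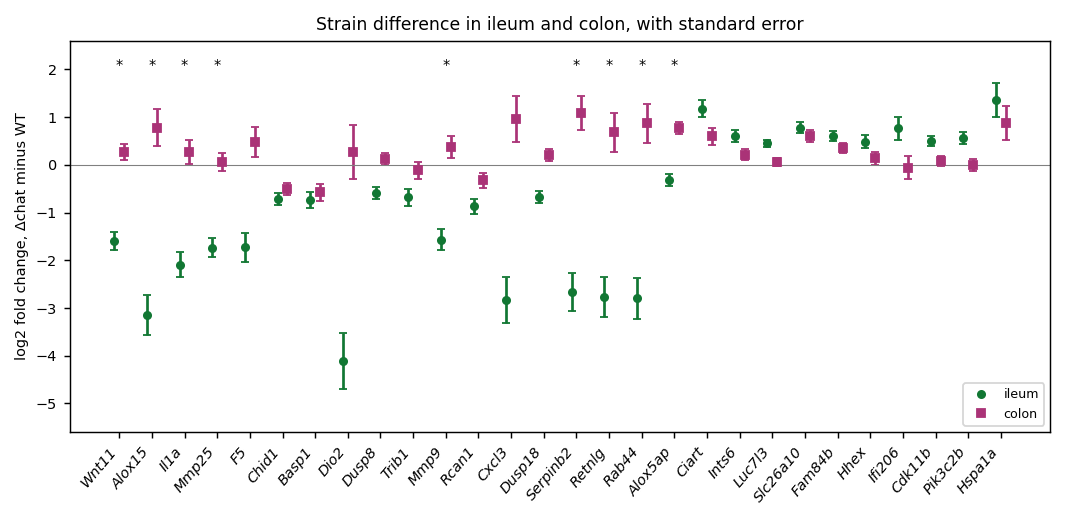
Log2 fold change of Δchat over WT with its standard error in ileum (green circles) and colon (purple squares) from 1 fit over 16 libraries, for the 14 lower genes of smallest p, 4 further genes and the 10 higher genes of smallest p. Stars mark the 9 genes whose effect differed between tissues. *Alox15*, *Il1a* and *Wnt11* lay below 0 in ileum and above 0 in colon.

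The next genes did not pass, and are given by the lists of cell sources and pathways that hold them. These lists were chosen with earlier results of these data known, so their counts describe and do not test. Of all 14496 genes tested, 6787 had a negative log2 fold change and 7709 a positive one. At an unadjusted p below 0.05, 6.1% were lower and 4.81% higher. Without overlap, 4.1% were lower and 3.24% higher. The counts of every list below are to be set beside these shares. In the neutrophil list, 14 of 21 genes were tested. Of these, 11 had a negative log2 fold change, 7 had an unadjusted p below 0.05 and were lower, 5 of them with no overlap, and 0 had such a p and were higher. Their median was -1.10, beside 0.015 over all genes tested. With 1 library left out, the number lower at that p ran from 5 (without WT replicate 1) to 9 (without WT replicate 4). The gelatinase *Mmp9* stood at 88.5, 67.2, 99.3 and 74.5 CPM in WT replicates 1 to 4 and at 24.2, 37.1, 30.4 and 17.8 CPM in Δchat replicates 1 to 4 (-1.59 ± 0.23, adjusted p = 0.0739). *Mmp25*, a membrane-anchored metalloproteinase, stood at 25.3, 27.96, 24.04 and 14.2 and 7.08, 7.60, 6.26 and 6.10 CPM in the same order (-1.76 ± 0.20, 0.0542). All Δchat libraries were below all WT libraries for both. *Il1r2*, the decoy receptor of interleukin 1, overlapped between the groups, as Δchat replicate 2 lay beside WT replicate 2 (-0.88 ± 0.22, 0.222). *Ly6g*, *Camp*, *Ngp*, *Elane* and *Mpo*, the defining granule and surface genes of neutrophils in that list, were too low to be tested. Not all of the others had negative values, since *Ltf*, the granule protein lactoferrin, *Csf3r*, the receptor of the neutrophil growth factor G-CSF, and *Hcar2*, a receptor for hydroxybutyrate and niacin, had 0.04 ± 0.41 (0.980), 0.27 ± 0.32 (0.780) and 0.34 ± 0.42 (0.799), with overlap.

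Eosinophil genes had negative values of unequal size. Of 16 listed, 12 were tested, all of them had a negative log2 fold change, 6 were lower at an unadjusted p below 0.05 and 4 did not overlap. The median was -0.72, and -1.03 (without Δchat replicate 2) to -0.62 (without WT replicate 3) with 1 library left out. *Ccr3*, the eotaxin receptor of eosinophils, stood at 6.49, 6.08, 4.996 and 2.24 CPM in WT replicates 1 to 4 and at 0.244, 0.810, 0.705 and 1.18 CPM in Δchat replicates 1 to 4 (-2.71 ± 0.47, adjusted p = 0.110). *Rab44* stood at 24.1, 11.1, 17.04 and 5.44 and 2.32, 1.92, 1.53 and 2.36 CPM in that order (-2.82 ± 0.43, 0.0812). Neither gene overlapped between the groups, and WT replicate 4 was the lowest WT library for both. *Siglecf*, the surface lectin that defines mouse eosinophils, named here after its values were seen, did not follow. It stood at 6.84, 6.95, 7.69 and 4.85 CPM in WT and at 2.26, 20.2, 2.28 and 1.34 CPM in Δchat, with Δchat replicate 2 above and the other Δchat libraries below every WT library (-0.02 ± 0.83, 0.997). The granule genes *Epx*, *Prg3*, *Ear1* and *Ear6* were too low to be tested. Granule genes that could be tested overlapped between the groups, *Prg2*, the major basic protein, at 30.1 to 62.1 CPM in WT and 33.5 to 51.5 CPM in Δchat (-0.15 ± 0.23, 0.850) and *Ear2*, an eosinophil ribonuclease also of some macrophages and monocytes, with -0.22 ± 0.74 (0.937). The list holds *Alox15* itself and *Thbs1*, a thrombospondin of many cell types.

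In the lipoxygenase and leukotriene list, 13 of 15 tested genes had a negative log2 fold change, 6 were lower and 0 higher at an unadjusted p below 0.05, and the median was -0.26 (-0.35 to -0.16 with 1 library left out). The number lower was 2 without Δchat replicate 4 or WT replicate 3, and at most 5 in any of these fits. *Alox5*, 5-lipoxygenase, stood at 17.1, 15.5, 15.2 and 9.33 CPM in WT replicates 1 to 4 and at 6.47, 10.2, 5.64 and 2.85 CPM in Δchat (-1.19 ± 0.35, adjusted p = 0.287), with Δchat replicate 2 above the lowest WT library. *Gpx4*, the peroxidase that reduces lipid hydroperoxides, stood at 122 ± 4.43 CPM and 107 ± 8.73 CPM (mean ± SD, n = 4; -0.19 ± 0.08, 0.400). Prostaglandin genes had a median of -0.03 over 15. The synthases *Ptges* (-1.41 ± 0.41, 0.279) and *Ptgis* (-1.27 ± 0.35, 0.251), which make prostaglandin E2 and prostacyclin, were below the WT range in all Δchat libraries and highest there in replicate 3, while the receptor *Ptger1* was above it (0.56 ± 0.15, 0.253). The cyclooxygenases *Ptgs1* and *Ptgs2* had values of 0.02 ± 0.32 and -0.34 ± 0.34 and overlapped.

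Among cytokines and their receptors, a few ligands had large negative values, and list medians were negative by smaller steps. The median was -0.04 for the interleukin 1 family, -0.20 for the inflammatory cytokine and NF-kB list and -0.36 for CC chemokines. In the interleukin 1 family, 3 of 22 tested genes were lower and 1 was higher at an unadjusted p below 0.05, with a median of -0.04. Without Δchat replicate 2, 7 were lower and 0 higher, and the median was -0.15. *Il33*, an alarmin of stromal and epithelial nuclei, stood at 23.4 to 32.4 CPM in the 4 WT libraries and at 5.50, 7.44, 20.4 and 10.1 CPM in Δchat replicates 1 to 4 (-1.27 ± 0.37, adjusted p = 0.279). No library overlapped, and the highest Δchat value was in replicate 3. *Il1b*, the myeloid sister of *Il1a*, stood at 471, 299, 464 and 518 CPM and 280.2, 755, 385 and 238 CPM (-0.08 ± 0.36, 0.957), with Δchat replicate 2, the library rich in macrophage genes, above every WT library.

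Of the inflammatory cytokine and NF-kB list, 24 of 28 tested genes were negative, 7 were lower and 1 was higher at an unadjusted p below 0.05, and the median was -0.20. Leaving out 1 library gave 5 (in several fits) to 14 (without Δchat replicate 2) lower genes. *Cxcl3*, a neutrophil chemoattractant, stood at 12.7, 6.35, 16.9 and 5.92 CPM in WT replicates 1 to 4 and at 2.08, 0.861, 1.53 and 1.34 CPM in Δchat replicates 1 to 4 (-2.86 ± 0.42, adjusted p = 0.0739). *Il6*, which acts on plasma cells and T helper cells, stood at 37.01, 44.2, 46.4 and 40.9 and 11.5, 11.6, 27.4 and 15.2 CPM in that order (-1.35 ± 0.27, 0.173). Neither overlapped. For *Il6*, as for *Il33*, *Ptges* and *Ptgis*, Δchat replicate 3 was the highest Δchat library, and it was also the highest for fibroblast genes. The part of the fibroblast level in these values was not tested. *Traf1*, a signalling adaptor, had a value of -0.50 ± 0.12 (0.202). *Tnf* had a positive value of 0.97 ± 0.42 (0.457) that came with 40.1, 121, 52.4 and 28.7 CPM in Δchat replicates 1 to 4 against 26.9 to 33.6 CPM in WT, so that replicate 2 was far above the others. The inhibitor *Tnfaip3*, one of the most abundant genes of the list, had a value of -0.04 ± 0.16.

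CC chemokines had a median of -0.36 over 17 tested genes, of which 4 were lower and 0 higher at an unadjusted p below 0.05. With 1 library left out, 2 (in several fits) to 8 (without Δchat replicate 2) were lower. The median was -0.57 (without Δchat replicate 2) to -0.12 (without Δchat replicate 4) in those fits. *Ccl7*, a monocyte and eosinophil chemoattractant, had values of 15.5, 10.6, 17.8 and 10.6 CPM in WT and 3.30, 9.52, 9.42 and 2.97 CPM in Δchat (-1.11 ± 0.42, adjusted p = 0.385). *Ccl17*, a ligand of CCR4, had a value of -1.79 ± 0.55 (0.293) at under 5 CPM in each library. *Ccl21a*, the lymph vessel chemokine, is described with the vessels below. Matrix metalloproteinases and their inhibitors had a median of -0.61 over 21 genes, 19 of them negative. At an unadjusted p below 0.05, 5 were lower. With 1 library left out, 3 (in several fits) to 11 (without Δchat replicate 3) were lower. *Mmp10*, stromelysin 2, had values of 8.33, 1.25, 2.95 and 6.34 CPM in WT replicates 1 to 4 and 1.22, 1.11, 1.29 and 0.610 CPM in Δchat (-2.15 ± 0.56, 0.226), with WT replicate 2 inside the Δchat range.

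In the coagulation and fibrinolysis list, 6 of 22 tested genes were lower and 0 higher at an unadjusted p below 0.05, with a median of -0.32. Without 1 library, 3 (without Δchat replicate 4) to 10 (without Δchat replicate 3) were lower. *F5*, coagulation factor V, stood at 31.6, 42.4, 30.9 and 23.2 CPM in WT replicates 1 to 4 and at 7.21, 9.47, 13.1 and 8.25 CPM in Δchat replicates 1 to 4 (-1.75 ± 0.23, adjusted p = 0.0739). *Serpinb2* stood at 9.31, 7.06, 10.2 and 3.09 and 1.22, 1.47, 0.622 and 1.30 CPM in that order (-2.69 ± 0.42, 0.0812). All WT libraries were above all Δchat libraries for both. *F5*, *Alox15*, *Selp* and *Tgm2* are also genes of large peritoneal macrophages, a list drawn up after the values were seen. Of its 14 members 9 were tested, of which 3 were lower and 0 higher without overlap. *Selp*, *Icam2*, *Garnl3*, *Ltbp1*, *F10* and *Gata6* overlapped, at -0.93 ± 0.27, 0.02 ± 0.11, 0.04 ± 0.23, -0.23 ± 0.21, -0.58 ± 0.36 and 0.56 ± 0.24 in that order. Its defining members *Prg4*, *Vsig4*, *Cd5l*, *Saa3* and *Fcna* were at most 0.733 CPM in every library, and *Gata6*, the factor of those cells, was at 3.85 to 5.05 CPM in WT and 4.001 to 8.74 CPM in Δchat. The mesothelial markers *Msln*, *Upk3b*, *Upk1b*, *Wt1*, *Lrrn4* and *Muc16* were at most 0.203 CPM. The other 3 of the 9 mesothelial markers were tested. *Gpm6a*, a membrane glycoprotein also of neurons and lymph vessels, stood at 4.44 to 8.69 CPM in WT and 1.92 to 3.33 CPM in Δchat with no overlap (-1.30 ± 0.29), while *Nkain4* (-0.59 ± 0.36) and *Krt19*, also a keratin of gut epithelium (0.78 ± 0.69), overlapped. The part of these cells in the results was not tested. *Tgm2*, a transglutaminase also made by vessels, stood at 702 to 1128 CPM in WT and 338 to 514 CPM in Δchat (-1.15 ± 0.20).

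**Figure D3:**
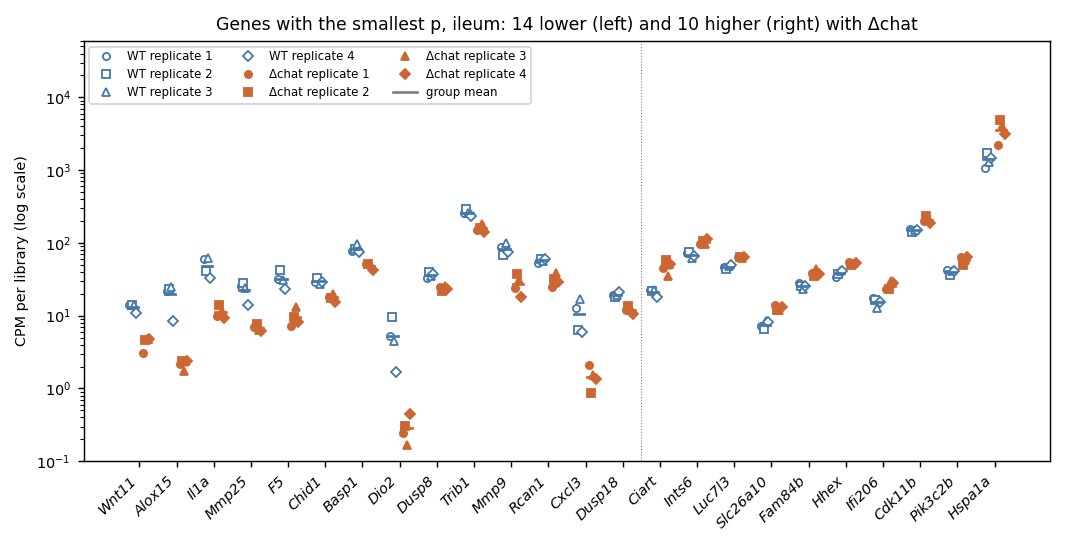
CPM per library (log scale) of the 14 genes with the smallest p among lower genes and the 10 among higher genes, taken where 1 group averaged at least 5 CPM. Open blue symbols are WT, filled orange symbols Δchat, and lines are group means. WT replicate 4 was the WT library closest to Δchat in 9 of the 14 lower genes. The groups did not overlap in any of the 24, which goes with their choice by smallest p and is no separate result.

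Across the 14 lower genes of smallest p, WT replicate 4 was the WT library closest to Δchat for 9 genes, and WT replicates 2 and 3 were the farthest for 6 genes each. No library of the Δchat group took that place as often, with replicate 3 the closest to WT for 6 genes. Besides those described so far, the 14 held *Chid1*, *Basp1*, *Trib1*, *Rcan1*, *Dusp18*, *Dusp8* and *Dio2*, the last 2 of which are given with their lists. *Chid1*, *Basp1*, *Trib1* and *Rcan1* had log2 fold changes smaller in size than those of the 14 already described. *Chid1*, a chitinase-domain protein of the secretory pathway, stood at 29.1, 32.6, 27.1 and 29.4 CPM in WT replicates 1 to 4 and 18.3, 17.6, 19.9 and 15.5 CPM in Δchat replicates 1 to 4 (-0.73 ± 0.10, adjusted p = 0.0739). *Rcan1*, a feedback inhibitor of calcineurin, had a value of -0.89 ± 0.13 (0.0739), *Trib1*, a pseudokinase that steers protein degradation in myeloid cells, one of -0.71 ± 0.10 (0.0739), and *Basp1*, a membrane-linked protein of the cell cortex, one of -0.77 ± 0.10 (0.0739). None passed.

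Nearly all plasma cell genes had negative values, by small steps. Immunoglobulin genes, 424 in the table with *Jchain* not among them, made up 15.01 ± 3.54% of all counts in the WT libraries and 10.3 ± 2.3% in the Δchat libraries (mean ± SD, n = 4). The shares were 13.39, 20.21, 12.35 and 14.10% in WT replicates 1 to 4, and 12.91, 7.555, 9.494 and 11.21% in Δchat replicates 1 to 4. The groups overlapped, as Δchat replicate 1 was above WT replicate 3. Of the plasma cell and IgA list, all 28 genes were tested, 25 were negative, 15 were lower and 0 were higher at an unadjusted p below 0.05, and 10 did not overlap. The median was -0.41, and -0.54 (without Δchat replicate 1) to -0.29 (without WT replicate 2) with 1 library left out. In those fits, 9 (in several) to 18 (without Δchat replicate 1) members were lower.

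*Igha*, the IgA heavy chain, stood at 72854, 123550.0, 66336 and 77524 CPM in WT replicates 1 to 4 and at 69668, 39357, 48186 and 56891 CPM in Δchat replicates 1 to 4 (-0.67 ± 0.25, adjusted p = 0.371). WT replicate 2 was far above the rest and the groups overlapped. *Igkc*, the kappa light chain, had a value of -0.69 ± 0.23 (0.324). The lambda chain *Iglc2* stood at 478, 926, 703 and 485 CPM in WT replicates 1 to 4 and at 236, 123, 175 and 207 CPM in Δchat (-1.81 ± 0.27, 0.0794), with no overlap. The other lambda chains overlapped, *Iglc1* with -0.18 ± 0.29 (0.859) and *Iglc3* with -0.68 ± 0.59 (0.708). Reads of *Iglc2* and its near-identical neighbour *Iglc3* can be shared in different proportions, so the value of the single gene is uncertain. *Prdm1*, the factor Blimp-1 that sets the plasma cell state, stood at 119 ± 9.10 and 90.4 ± 10.3 CPM (mean ± SD, n = 4; -0.40 ± 0.10, 0.201). *Xbp1*, the factor that expands the secretory apparatus, had a value of -0.54 ± 0.15 and no overlap. With immunoglobulin genes removed before scaling, edgeR called 4 genes, the 3 above among them.

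Genes of protein folding in the endoplasmic reticulum were negative in nearly all members. All 29 members were tested, 27 were negative, 18 were lower at an unadjusted p below 0.05 and 16 did not overlap, and 0 were higher. Of all genes tested, 6.1% were lower at that p and 4.1% were lower without overlap. The median was -0.24, and -0.30 to -0.21 with 1 library left out, with 12 (without WT replicate 2) to 19 (without WT replicate 1) lower. None passed the adjusted test, and DESeq2 called 6. *Sdf2l1*, a co-chaperone, stood at 73.9, 88.3, 86.5 and 79.5 CPM in WT replicates 1 to 4 and at 58.6, 60.1, 61.1 and 58.4 CPM in Δchat replicates 1 to 4 (-0.46 ± 0.07, adjusted p = 0.0812). *Creld2*, a disulfide isomerase-like protein induced by misfolded proteins, stood at 111, 143, 116 and 128 and 77.5, 88.4, 89.8 and 90.1 CPM in that order (-0.52 ± 0.10, 0.120). *Pdia6*, a protein disulfide isomerase, stood at 325, 344, 367 and 304 and 233, 230.4, 275 and 249 CPM (-0.44 ± 0.09, 0.180). For all 3 genes every Δchat library was below every WT library, and the spread within a group was small. The abundant chaperone *Hsp90b1* stood at 1984 ± 211 and 1482 ± 82.6 CPM (-0.42 ± 0.10, 0.189). *Hspa5*, the most abundant member, overlapped between the groups, with Δchat replicate 2 among the highest libraries (-0.19 ± 0.14, 0.653). The list shares *Creld2* and *Xbp1* with the plasma cell list, and plasma cells are rich in these chaperones as secretory cells. The part of the plasma cell level in the values of this list was not tested.

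The promoters of several of these genes share the ER stress element, to which the factor ATF6 is known to bind. They are printed here since the genes that hold it lay on 1 side. Of the whole list, 27 of 29 members lay on that side, so the side does not set the holders apart. Genes outside the list that hold the element are not described here. The element was searched as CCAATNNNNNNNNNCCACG on both strands in the 250 bases before each RefSeq start (GRCm38.p6), a build other than that of the counts. It occurred in 35 of 27025 genes with such a window (0.13%), and in 8 of the 25 list members with one (32.0%), namely *Creld2*, *Pdia6*, *Hsp90b1*, *Dnajc3*, *Calr*, *Hspa5*, *Canx* and *Syvn1*. Their log2 fold changes were -0.52 ± 0.10, -0.44 ± 0.09, -0.42 ± 0.10, -0.28 ± 0.08, -0.19 ± 0.08, -0.19 ± 0.14, -0.12 ± 0.07 and -0.13 ± 0.13 in that order, all negative, with overlap of the groups in *Hspa5* and *Syvn1*. Capitals mark the element, and exons annotated in GENCODE vM21 are left out.
Creld2, chr15:88819396-88819645, + strand: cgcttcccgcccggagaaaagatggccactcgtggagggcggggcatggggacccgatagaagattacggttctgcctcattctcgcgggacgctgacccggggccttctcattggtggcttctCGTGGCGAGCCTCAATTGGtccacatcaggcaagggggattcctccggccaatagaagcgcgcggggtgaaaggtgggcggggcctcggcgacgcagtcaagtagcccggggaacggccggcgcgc
Pdia6, chr12:17266339-17266544, + strand: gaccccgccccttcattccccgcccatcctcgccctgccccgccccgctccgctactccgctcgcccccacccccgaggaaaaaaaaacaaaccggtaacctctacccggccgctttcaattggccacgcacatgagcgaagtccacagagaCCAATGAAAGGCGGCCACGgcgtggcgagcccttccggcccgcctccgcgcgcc
Hsp90b1, chr10:86705510-86705694, − strand: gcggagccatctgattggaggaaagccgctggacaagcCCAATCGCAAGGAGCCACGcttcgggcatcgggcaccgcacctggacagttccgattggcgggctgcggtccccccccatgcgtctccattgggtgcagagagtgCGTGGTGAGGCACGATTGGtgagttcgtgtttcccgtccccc
Dnajc3, chr14:118937682-118937931, + strand: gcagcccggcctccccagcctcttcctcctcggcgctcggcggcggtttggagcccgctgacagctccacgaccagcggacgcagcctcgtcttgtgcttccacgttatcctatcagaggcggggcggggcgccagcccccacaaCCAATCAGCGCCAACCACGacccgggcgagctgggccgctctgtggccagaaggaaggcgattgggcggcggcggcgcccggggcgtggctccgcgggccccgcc
*Creld2* holds the element on the strand opposite to the gene, *Pdia6* and *Dnajc3* hold it on the strand of the gene, and *Hsp90b1* holds 2, 1 on each strand. Such a match describes the letters of these windows and shows no binding.

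Immediate early genes, which follow a stimulus within minutes and include the Fos, Jun and Egr factors, were negative in all 20 tested members. At an unadjusted p below 0.05, 10 were lower, 8 members did not overlap, and the median was -0.26 (-0.30 to -0.22 with 1 library left out, with 6 (without WT replicate 3) to 13 (without Δchat replicate 2) lower). *Fosb* stood at 3340.0, 4350.1, 3573 and 3793 CPM in WT replicates 1 to 4 and at 1618, 2239.5, 2398 and 2030.1 CPM in Δchat replicates 1 to 4 (-0.86 ± 0.14, adjusted p = 0.0943). *Klf4* stood at 606, 671, 642 and 693 and 292, 361, 542 and 405 CPM in that order (-0.71 ± 0.17, 0.200). Δchat replicate 1 was the lowest library for both, and the groups did not overlap. *Klf2*, a quiescence and trafficking factor of lymphocytes and endothelium, had a value of -0.45 ± 0.13 (0.275), and the abundant *Junb* one of -0.07 ± 0.11. The phosphatases and inhibitors that switch off MAP kinases had a median of -0.25 over 16 members, 7 of them lower and 1 higher at that p. With 1 library left out, 4 (without WT replicate 2) to 8 (without Δchat replicate 1) were lower. *Dusp8* stood at 32.8, 39.8, 34.8 and 37.6 CPM in WT replicates 1 to 4 and at 24.5, 22.1, 25.5 and 23.1 CPM in Δchat (-0.61 ± 0.09, 0.0739), with no overlap. *Dusp16* had a value of -0.35 ± 0.09 (0.196) and *Dusp1*, the most abundant, one of -0.36 ± 0.12 (0.334). *Dusp7* was the 1 member higher at an unadjusted p below 0.05 (0.36 ± 0.10, 0.252), among 4 with a positive value. *Dusp18*, outside the list, had a value of -0.69 ± 0.10 (0.0749).

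Heat shock genes lay on the opposite side. Of 14 tested, 12 were positive, 6 were higher and 0 lower at an unadjusted p below 0.05, and 4 did not overlap. The median was 0.42 (0.27 to 0.52 with 1 library left out). In those fits, 5 (in several) to 11 (without Δchat replicate 1) were higher. *Hspa1a*, the inducible HSP70, stood at 1086, 1732, 1313 and 1471 CPM in WT replicates 1 to 4 and at 2185, 4835, 3983 and 3175 CPM in Δchat replicates 1 to 4 (1.34 ± 0.25, adjusted p = 0.124). Its near-identical copy *Hspa1b* gave 1.44 ± 0.27 (0.125), and how reads were split between the copies is uncertain. Δchat replicate 2 was the highest library, and replicate 1 the lowest of Δchat, still above WT. *Hspd1*, the mitochondrial chaperonin HSP60, stood at 114, 145, 137 and 134 and 174, 209.9, 161 and 198 CPM in that order (0.49 ± 0.11, 0.183), also with no overlap. The constitutive *Hspa8* overlapped (0.34 ± 0.16).

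**Figure D4:**
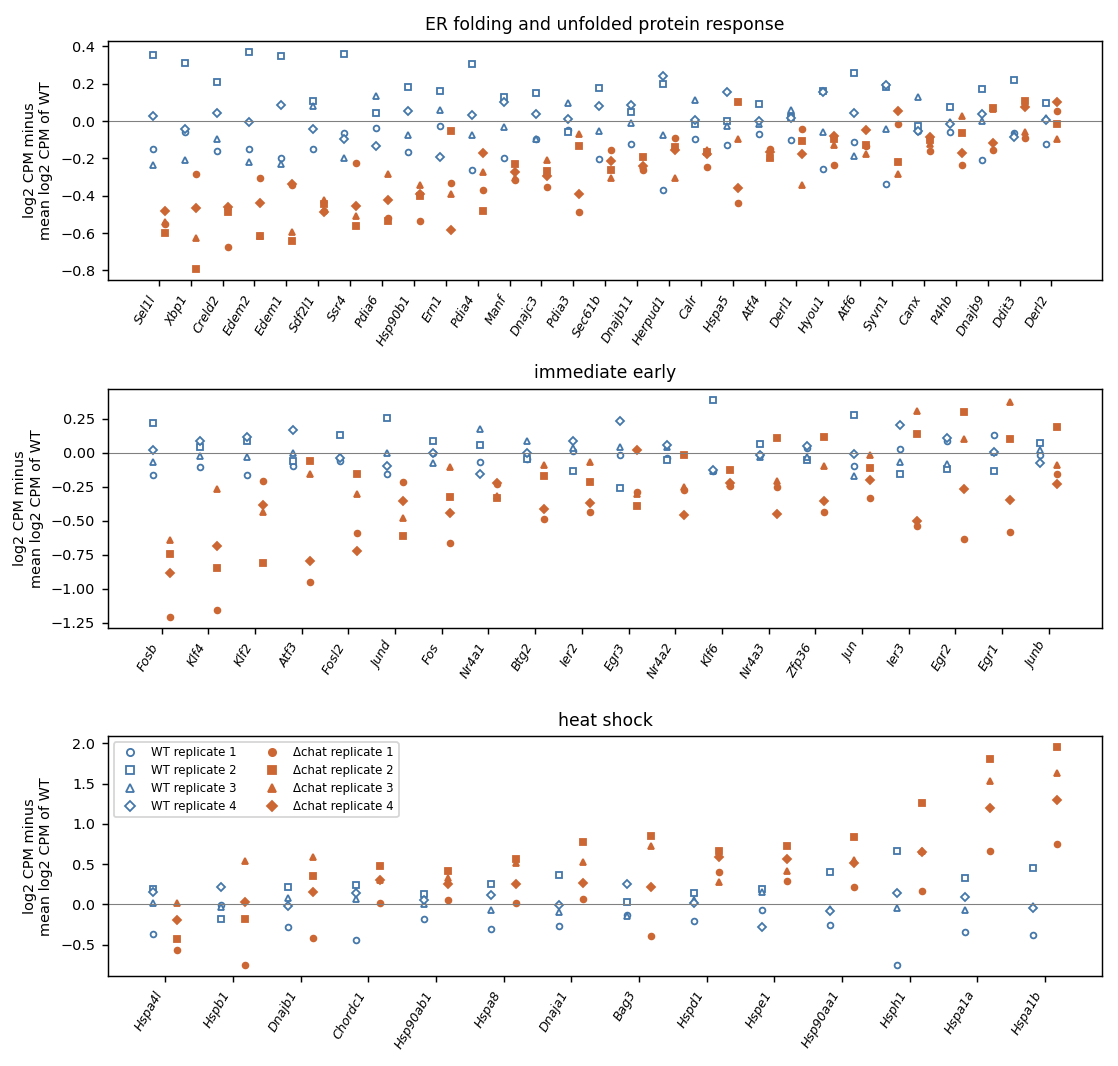
Log2 CPM of each library minus the mean log2 CPM of the 4 WT libraries, for all tested members of the lists of ER folding, immediate early and heat shock genes, open symbols for WT and filled for Δchat. Δchat libraries lay mostly below 0 in the first 2 lists, with medians of -0.24 and -0.26, and mostly above 0 in the third, with a median of 0.42.

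Clock genes had a median of 0.00046 over 21, with 4 higher and 2 lower at an unadjusted p below 0.05, and held the higher gene of smallest p. *Ciart*, a repressor that binds the CLOCK complex, stood at 22.7, 22.05, 22.2 and 18.2 CPM in WT replicates 1 to 4 and at 45.4, 58.3, 35.01 and 50.6 CPM in Δchat replicates 1 to 4 (1.15 ± 0.15, adjusted p = 0.0739). All Δchat libraries were above all WT libraries. In colon, *Ciart* stood at 25.4, 25.2, 19.4 and 24.03 CPM in WT and 37.8, 47.3, 26.4 and 30.4 CPM in Δchat (0.59 ± 0.18), and the difference between tissues was 0.59 ± 0.26 (adjusted p = 0.629). *Tef*, a clock output factor, had a value of 0.41 ± 0.14 (0.325), while the repressors *Cry2* (-0.27 ± 0.08, 0.290) and *Per2* (-0.63 ± 0.26, 0.429) had negative ones and *Per1* had 0.12 ± 0.11. The E-box CACGTG, to which CLOCK is known to bind, was found in 6.86% of the 27025 genes with a window and in 5 of 17 clock genes (29.4%), *Per1*, *Cry1*, *Tef*, *Ciart* and *Bhlhe41*. Other lists held it as well, in 2 of 11 heat shock genes (18.2%) and 3 of 17 immediate early genes (17.6%). For ER folding and plasma cell genes the shares were 8.0% and 5.88%. *Ciart*, shown because it was the 1 clock gene that DESeq2 called, holds 3, in capitals.
Ciart, chr3:95882252-95882478, − strand, GRCm38.p6: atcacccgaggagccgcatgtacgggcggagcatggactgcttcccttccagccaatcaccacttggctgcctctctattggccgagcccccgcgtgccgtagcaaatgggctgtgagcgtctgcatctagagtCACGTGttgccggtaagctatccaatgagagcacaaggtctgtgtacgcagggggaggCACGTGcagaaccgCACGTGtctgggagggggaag

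Beside *Ciart* and *Hspa1a*, the higher genes of smallest p were *Ints6*, *Luc7l3*, *Slc26a10*, *Fam84b*, *Hhex*, *Ifi206*, *Cdk11b* and *Pik3c2b*. None passed, and none overlapped between the groups, as goes with a choice by smallest p. *Ints6*, a subunit of the Integrator complex that ends transcription, stood at 72.3, 74.4, 62.3 and 65.5 CPM in WT replicates 1 to 4 and at 97.7, 105, 95.4 and 112 CPM in Δchat (0.58 ± 0.08, adjusted p = 0.0739). *Luc7l3*, a splicing factor, stood at 47.1, 43.9, 47.4 and 49.5 and 64.2, 63.6, 61.3 and 63.2 CPM (0.42 ± 0.06, 0.0739). Their libraries differed little within a group. *Hhex*, a homeobox factor of B cells and myeloid precursors, had a value of 0.46 ± 0.08 (0.116), *Ifi206*, an interferon-inducible gene of a family of close copies, one of 0.75 ± 0.13 (0.116), and *Cdk11b*, a kinase that acts on splicing, one of 0.48 ± 0.09 (0.116). *Pik3c2b*, a class II phosphoinositide kinase, had one of 0.54 ± 0.10 (0.116). *Dio2*, which activates thyroid hormone, lay at the other end. It stood at 5.29, 9.56, 4.44 and 1.71 CPM in WT replicates 1 to 4 and at 0.244, 0.304, 0.166 and 0.447 CPM in Δchat (-4.13 ± 0.57, 0.0739), and at under 1 CPM in every colon library. Of the 10 thyroid hormone genes tested, 1 was lower and 1 higher at an unadjusted p below 0.05, the higher one being the transporter *Slc16a10* (0.48 ± 0.13, 0.226).

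Lymphocyte lists had medians on both sides of 0. B cell genes had a median of 0.48 over 22, 20 of them positive, 1 higher and 0 lower at an unadjusted p below 0.05. The median was 0.06 (without Δchat replicate 1) to 0.74 (without Δchat replicate 3) with 1 library left out. *Cd79a*, a subunit of the B cell receptor, stood at 189, 211, 252 and 155 CPM in WT replicates 1 to 4 and at 364, 99.1, 109 and 314 CPM in Δchat (0.13 ± 0.44, adjusted p = 0.936). Δchat replicates 1 and 4 were the highest of all libraries and replicates 2 and 3 the lowest. The germinal centre list had its median at -0.40 over 12 (2 lower). With 1 library left out it was -0.59 (without Δchat replicate 1) to -0.02 (without WT replicate 3). In those fits, 1 (in several) to 3 (without Δchat replicate 1) members were lower. *S1pr2*, the receptor that holds B cells in the follicle, had a value of -0.54 ± 0.12 (0.189). T cell genes had a median of -0.17 over 22, with 17 negative and 1 lower at that p. It was *Cd28*, the costimulatory receptor, which stood at 124, 180.1, 118 and 129 CPM in WT replicates 1 to 4 and at 94.6, 99.1, 86.5 and 98.4 CPM in Δchat, with no overlap (-0.54 ± 0.14, 0.207).

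The cytotoxic and NK cell list had a median of -0.03 over 19, with 2 higher and 4 lower at an unadjusted p below 0.05. The higher ones were *Ifng* and its inducer *Tbx21*, the factor T-bet. *Ifng* stood at 6.55, 15.2, 7.69 and 8.74 CPM in WT replicates 1 to 4 and at 19.2, 31.4, 15.6 and 22.6 CPM in Δchat replicates 1 to 4 (1.22 ± 0.30, adjusted p = 0.207), and *Tbx21* at 17.01, 21.3, 14.9 and 19.2 and 27.1, 25.5, 23.7 and 28.1 CPM in that order (0.53 ± 0.12, 0.189). All Δchat libraries were above all WT libraries for both. The killing genes *Fasl* (-0.33 ± 0.11, 0.330), *Gzmb* (-0.25 ± 0.09, 0.363) and *Nkg7* (-0.27 ± 0.10, 0.371) lay below, by smaller steps. The Th17 and ILC3 list, with a median of -0.07 over 14, also held genes on both sides, 3 higher and 2 lower. *Il17a*, the cytokine of Th17 and gamma delta T cells, stood at 11.6, 9.01, 3.50 and 3.57 CPM in WT replicates 1 to 4 and at 0.611, 1.98, 1.33 and 1.46 CPM in Δchat replicates 1 to 4 (-2.34 ± 0.49, 0.180), with no overlap and WT replicates 1 and 2 the highest. *Il22*, the ILC3 cytokine that acts on epithelium, stood at 3.73, 4.45, 3.54 and 2.45 and 11.1, 4.46, 7.47 and 4.35 CPM in that order (0.94 ± 0.33, 0.350) and overlapped. *Il17re*, a receptor for IL-17C, had a value of 0.96 ± 0.29 (0.292), and *Ahr*, a sensor of indoles and other ligands, one of -0.35 ± 0.08 (0.189).

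Regulatory T cell genes had a median of -0.28 over 13, 12 of them negative and 2 lower at an unadjusted p below 0.05. Without Δchat replicate 2, the highest Δchat library for that list, the median was -0.64 and 8 genes were lower. *Ctla4* had a value of -0.49 ± 0.19 (adjusted p = 0.395). The type 2 lymphocyte and ILC2 list had a median of -0.39 over 13 (-0.86 (without Δchat replicate 2) to -0.18 (without WT replicate 2) with 1 library left out). *Il5*, the growth factor of eosinophils, stood at 1.55, 2.71, 2.01 and 0.426 CPM in WT replicates 1 to 4 and at 0, 0.101, 0.539 and 0.285 CPM in Δchat (-2.74 ± 0.80, 0.275), near the lower end of what these depths can measure and with overlap at WT replicate 4. *Calca*, a neuropeptide of nerves and ILC2, had a value of -0.84 ± 0.33 (0.396). The gamma delta and intraepithelial list had a median of 0.11 over 10, with *Itgae*, the integrin CD103, at -0.53 ± 0.22 (0.441).

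Macrophage and dendritic cell lists had medians near that of all genes. Of all genes tested, 6.1% were lower at an unadjusted p below 0.05, so 2 lower members say little about such a list. Macrophage genes had 0.12 over 22, with 0 higher and 2 lower at an unadjusted p below 0.05, and -0.35 (without Δchat replicate 2) to 0.34 (without Δchat replicate 4) with 1 library left out. The lower ones were *Timd4* and *Lyve1*, both markers of long-lived resident macrophages, and *Lyve1* also of lymph vessels. *Timd4*, a phosphatidylserine receptor, stood at 16.1, 12.3, 16.6 and 17.8 CPM in WT replicates 1 to 4 and at 4.88, 10.5, 8.63 and 6.51 CPM in Δchat replicates 1 to 4 (-1.04 ± 0.23, adjusted p = 0.183). No library overlapped, although Δchat replicate 2 had more of the other macrophage genes than any WT library. *Apoe* and *Lyz2*, the most abundant of the list, had values of 0.30 ± 0.46 and 0.29 ± 0.35. Monocyte genes had a median of -0.34 over 13, with 3 lower. That median was -0.58 (without Δchat replicate 2) to -0.11 (without WT replicate 1) with 1 library left out. The number lower was 2 (in several fits) to 5 (without Δchat replicate 2). *Ly6c2*, the antigen of inflammatory monocytes and also of plasma cells and some T cells, stood at 235, 219.6, 167 and 223 CPM in WT and at 147, 77.7, 107 and 117 CPM in Δchat (-0.91 ± 0.19, 0.180), with no overlap. Dendritic cell genes had a median of -0.03 over 16, with 2 lower, *Siglech* of plasmacytoid cells (-1.35 ± 0.41, 0.287) and *Cd209a* (-0.68 ± 0.29, 0.446). Of the 7 mast cell and basophil genes tested of 15, *Kit* (-0.56 ± 0.14, 0.220) and *Hdc*, which makes histamine (-0.71 ± 0.20, 0.262), were lower and *Gata2* (0.38 ± 0.14, 0.360) higher at that p, with a median of -0.07. All 11 MHC class II genes had a positive value, with a median of 0.16 and 0 at an unadjusted p below 0.05. Without Δchat replicate 2 that median was -0.06.

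Fibroblast genes had the list median farthest below 0 after the neutrophil list, -0.998 over 19, with 18 negative. Yet 2 were lower at an unadjusted p below 0.05, with Δchat replicate 3 at the WT level. Without that library, 16 were lower and the median was -1.84. *C3*, the complement component made by fibroblasts and macrophages, stood at 935, 511, 764 and 513 CPM in WT replicates 1 to 4 and at 88.2, 87.2, 471 and 172 CPM in Δchat replicates 1 to 4 (-1.74 ± 0.58, adjusted p = 0.334), with no overlap. *Col1a1*, type I collagen, stood at 1749, 1027, 1557 and 1528 and 290.1, 217, 1747 and 597 CPM in that order (-1.04 ± 0.63, 0.584). Δchat replicate 3 was beside WT replicate 1 at the top. Wnt genes had a median of -0.23 over 37, with 5 lower and 0 higher, and 19 lower without Δchat replicate 3. Beside *Wnt11*, *Wnt2*, a ligand of stromal and vessel cells, stood at 2.30, 1.52, 1.92 and 4.21 CPM in WT and 0.122, 0.304, 0.705 and 0.610 CPM in Δchat (-2.45 ± 0.52, 0.180), and *Znrf3*, a ligase that removes Wnt receptors, had a value of -0.46 ± 0.16 (0.351). Neither overlapped.

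Vessel genes had values on both sides of 0. The endothelial list had a median of 0.07 over 13, with 3 lower and 0 higher at an unadjusted p below 0.05. *Plvap*, of fenestrated capillaries, had a value of 0.30 ± 0.17 (adjusted p = 0.561), while *Prox1*, the lymphatic factor, had -1.07 ± 0.36 (0.334) and *Ackr1*, of venules, -0.77 ± 0.32 (0.446). *Lyve1* stood at 80.2, 39.1, 37.4 and 117 CPM in WT replicates 1 to 4 and at 3.18, 13.1, 17.05 and 15.2 CPM in Δchat replicates 1 to 4 (-2.48 ± 0.57, 0.193). *Ccl21a*, which guides dendritic cells into lymph vessels, stood at 48.4, 23.4, 23.8 and 63.6 and 2.50, 7.04, 10.5 and 11.5 CPM in that order (-2.32 ± 0.52, 0.189). Close copies of *Ccl21a* make its count uncertain. WT replicates 1 and 4 were the highest for both genes and Δchat replicate 1 the lowest. A list of 7 lymphatic genes drawn up after these values were seen summed to 255 to 661 CPM in WT and to 110.0 to 211 CPM in Δchat. It holds *Lyve1*, *Ccl21a* and *Prox1* themselves, so its sums describe and do not test. *Mmrn1* (-2.54 ± 0.53) and *Reln* (-1.18 ± 0.24) were also without overlap. *Prox1*, *Pdpn* (-1.36 ± 0.52) and *Flt4* overlapped, *Flt4* at 69.7 to 163 CPM in WT and 58.2 to 102.5 CPM in Δchat (-0.47 ± 0.30). Smooth muscle genes had a median of 0.19 over 11, with 2 higher, *Tagln* (0.49 ± 0.16, 0.323) and *Myl9* (0.40 ± 0.17, 0.438). Of 6 glial and neuronal genes tested of 14, 2 were lower and 0 higher at an unadjusted p below 0.05. *Sox10*, a factor of enteric glia, stood at 1.44, 0.869, 1.07 and 4.32 CPM in WT and at 0, 0.101, 0.0415 and 0.163 CPM in Δchat (adjusted p = 0.116), with no overlap and WT replicate 4 the highest.

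Epithelial genes varied among the libraries of both groups. The enterocyte list had a median of 0.80 over 17, with 1 higher and 0 lower at an unadjusted p below 0.05. It was 0.39 (without Δchat replicate 4) to 1.14 (without WT replicate 1) with 1 library left out. In those fits, 1 (in several) to 6 (without Δchat replicate 2) genes were higher. The secretory list had a median of 0.65 over 18. With 1 library left out, that was 0.0046 (without Δchat replicate 4) to 1.22 (without WT replicate 1). *Lyz1*, the Paneth cell lysozyme, stood at 489, 360.5, 90.8 and 64.02 CPM in WT replicates 1 to 4 and at 555, 146, 415 and 963 CPM in Δchat (1.05 ± 0.77, adjusted p = 0.653). WT replicates 3 and 4 and Δchat replicate 2 were the low ones, so the groups overlapped. *Tspan8*, a tetraspanin, was the 1 enterocyte-list gene without overlap (0.65 ± 0.14, 0.180). Pancreas genes (median -0.08 over 2) and red cell genes (median 0.06 over 5) overlapped, and the 4 Y-linked genes summed to 285 to 302 CPM in WT and 274 to 301 CPM in Δchat.

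The host genes for acetylcholine gave no call. Of 27 listed, 12 were tested, 0 were lower and 0 higher at an unadjusted p below 0.05, DESeq2 called 0 in either direction, and the median was -0.14 (-0.26 to -0.02 with 1 library left out). The muscarinic receptor *Chrm2* stood at 21.03, 8.74, 12.4 and 20.8 CPM in WT replicates 1 to 4 and at 11.8, 22.3, 27.8 and 14.7 CPM in Δchat replicates 1 to 4, which overlapped. *Chrm3*, the muscarinic receptor of glands and smooth muscle, stood at 2.93, 3.10, 2.13 and 1.92 and 2.26, 1.82, 2.57 and 2.24 CPM in that order (-0.18 ± 0.23, adjusted p = 0.813). *Ache*, which breaks acetylcholine down, stood at 3.73, 4.34, 3.16 and 5.06 and 4.95, 4.46, 4.15 and 4.43 CPM (0.14 ± 0.18, 0.802), and *Lynx1*, a modulator of nicotinic receptors, had a value of -0.14 ± 0.18 (0.817). The nicotinic subunits *Chrna2*, *Chrna10* and *Chrnb4* had values of 0.07 ± 0.28, -0.65 ± 0.38 and -0.91 ± 0.59 at up to 2.31 CPM in a library. *Chat*, *Slc18a3* and *Slc5a7*, the enzyme and carriers of cholinergic cells, and *Chrna7* were too low to be tested.

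Genes that support IgA and gut homing had a median of -0.17 over 25, with 6 lower and 2 higher at an unadjusted p below 0.05, the lower ones including *Il6*, *Il5* and the retinoic acid enzyme *Aldh1a3* (-1.69 ± 0.49, adjusted p = 0.279). *Cxcl12*, which holds plasma cells in place, had a value of 0.38 ± 0.17 (0.457), and the homing integrins *Itga4* and *Itgb7* had -0.17 ± 0.12 and -0.28 ± 0.14. Interferon response genes had a median of 0.08 over 28 (1 higher, *Irf9*, 0.40 ± 0.10, and 1 lower, *Bst2*, -0.31 ± 0.12). MHC class I genes had -0.10 over 17, respiratory chain genes 0.0088 over 26, glycolysis and hypoxia genes -0.05 over 23, and cell cycle genes -0.08 over 27. At an unadjusted p below 0.05, 0, 2, 3 and 0 of them were lower and 0, 0, 0 and 0 higher. Without Δchat replicate 2, 6 MHC class I genes were lower and their median was -0.19. *Slc16a3*, the lactate carrier, stood at 20.9, 15.1, 21.99 and 15.3 CPM in WT replicates 1 to 4 and at 8.91, 12.5, 11.8 and 10.8 CPM in Δchat, with no overlap (-0.74 ± 0.16, 0.183). *Gapdh* and *Pcna*, of glycolysis and DNA replication, had values of -0.10 ± 0.08 and 0.02 ± 0.06. Leaving out 1 library also moved the number of lower genes at an unadjusted p below 0.05 in further lists. It ran from 1 (without Δchat replicate 1) to 4 (without Δchat replicate 2) for T cell genes, from 1 (without Δchat replicate 1) to 5 (without Δchat replicate 2) for dendritic cell genes and from 2 (without Δchat replicate 1) to 5 (without Δchat replicate 2) for Th17 and ILC3 genes. For endothelial genes it ran from 0 (without WT replicate 4) to 4 (without Δchat replicate 3), for prostaglandin genes, 2 of which were lower with all libraries, from 2 (without Δchat replicate 1) to 5 (without Δchat replicate 2), and for type 2 lymphocyte genes from 1 (without Δchat replicate 1) to 5 (without Δchat replicate 2). For clock genes it ran from 1 (without Δchat replicate 1) to 4 (without Δchat replicate 2), for thyroid hormone genes from 1 (without Δchat replicate 1) to 4 (without Δchat replicate 3), for interferon response genes from 0 (without Δchat replicate 1) to 4 (without Δchat replicate 3) and for respiratory chain genes from 0 (without Δchat replicate 2) to 3 (without Δchat replicate 1). The number of higher genes ran from 1 (without Δchat replicate 1) to 4 (without Δchat replicate 4) for smooth muscle genes and from 1 (without Δchat replicate 2) to 4 (without Δchat replicate 1) for interferon response genes.

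**Figure D5:**
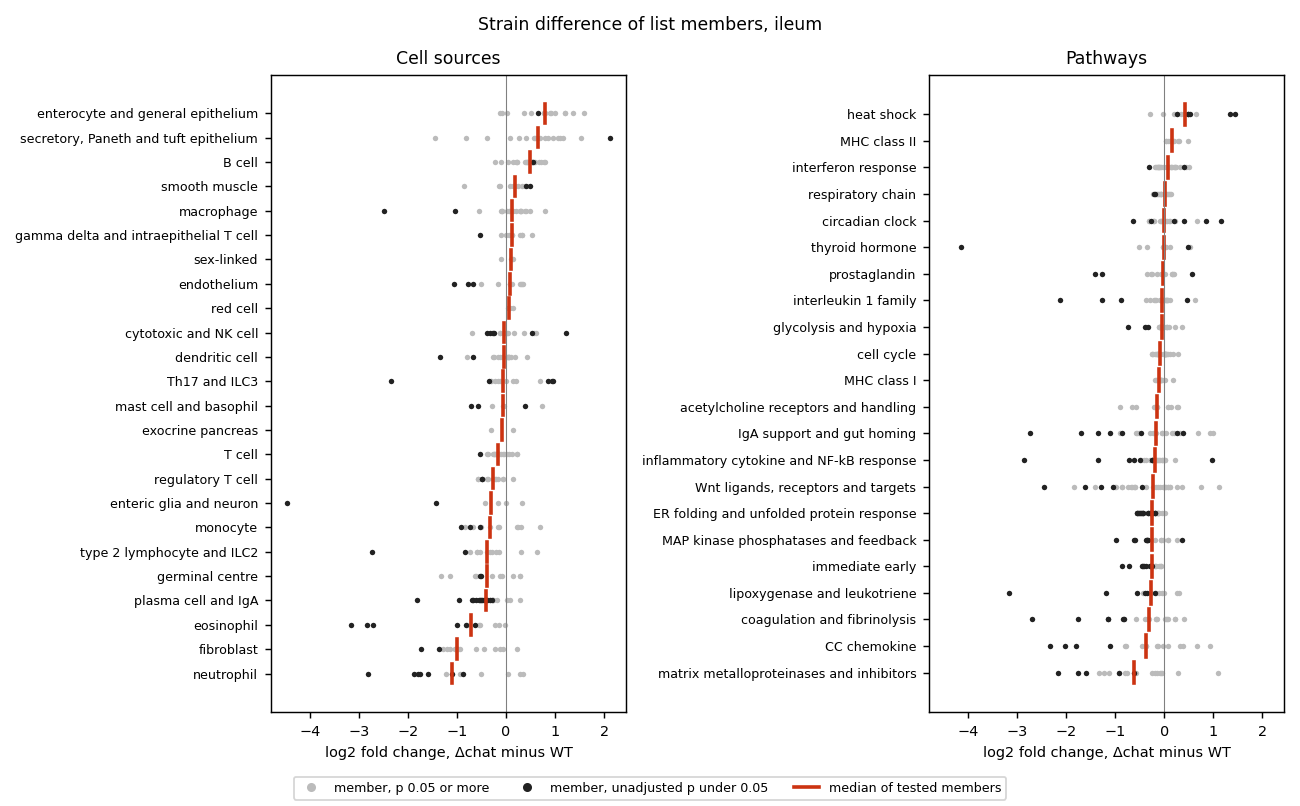
Log2 fold changes of Δchat over WT for each tested member of the 24 cell source lists and the 22 pathway lists, sorted by their median (red bars). Black points have an unadjusted p below 0.05. Lists of neutrophil and fibroblast genes had the medians farthest below 0, and those of epithelium the medians farthest above.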

How the data were processed

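The members, gene lists and lists of named genes were chosen with earlier results of these data known. The authors deposited estimated counts per gene. Per the submitters' processing notes, the tools were cutadapt 5.0 and Salmon 1.4.0, and the build was GRCm39. How transcripts were summed to genes is not given in the sources used here. Of 35647 genes, 35105 had a symbol. Estimated counts were rounded to whole counts. Libraries were grouped by title, and none was left out. Chi-square per degree of freedom between replicates within each ileum group was 26.7 to 94.9, so none was a copy of another in its group. Pairs across strains or tissues were not compared in this way. Positions of genes were not used here.

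Counts of 8 ileum libraries were fitted in R 4.3.3 with edgeR 4.0.16 (filterByExpr, TMM, robust quasi-likelihood, 2-sided, called at adjusted p under 0.05), a procedure tested on simulated data. The difference from colon came from 1 fit over 16 libraries. CPM of colon libraries come from that fit. Libraries of 1 strain and number were taken as 1 mouse. P values cover the spread between these mice. Nothing was imputed, and CPM have no pseudocount. A level of 1 CPM is 15.9 to 23.6 counts, which limits low genes. Ileum and colon of 1 mouse were paired for a mouse block because the design has 4 mice per group, and deviations of such pairs correlated at -0.18 to 0.274.

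Named genes were all called, the 14 lower and 10 higher of smallest p where 1 group averaged at least 5 CPM (segments of antigen receptors, gene models, pseudogenes and genes without symbol left out), up to 3 members with p under 0.05 per direction and the 2 most abundant of each of 46 lists, and acetylcholine genes of at least 1 CPM. Others are named for a motif, as markers, as absent, or after their values were seen. A few genes that the rule names are not reported here. Alternatives were RLE size factors, no or a stricter filter (1 CPM in 4 libraries), removal of immunoglobulin genes, a replicate block, 1 fit over 16 libraries, DESeq2 1.42.0, limma-voom of limma 3.58.1, and each library left out.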

Additional observations from a re-analysis of the deposited data

Results flagged for a closer look

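Values of 1 library far from the other 3 of its group were looked for in the named genes and lists by the Dixon test at its 95% critical value. Of 402 groups of 4 tested, 29 held such a value, where chance alone gives about 1 in 20 groups. WT replicate 1 was the highest of its group, far from the nearest library, for *F10* (3.45 against 1.74 CPM). WT replicate 1 was the lowest of its group, far from the nearest library, for *Gapdh* (738 against 801 CPM). WT replicate 2 was the highest of its group, far from the nearest library, for *Itgb7* (315 against 226 CPM), *Tnfaip3* (2283 against 1657 CPM), the mast cell and basophil list (186 against 169.9 CPM in sum) and the MAP kinase phosphatases and feedback list (3026 against 2702 CPM in sum). WT replicate 2 was the lowest of its group, far from the nearest library, for *Pik3c2b* (36.7 against 41.1 CPM), *Ptger1* (8.09 against 10.6 CPM), the macrophage list (3289.6 against 4433 CPM in sum) and the smooth muscle list (448 against 588 CPM in sum). WT replicate 3 was the highest of its group, far from the nearest library, for *Canx* (361 against 325 CPM). WT replicate 4 was the highest of its group, far from the nearest library, for *Ltbp1* (114 against 93.9 CPM) and *Sox10* (4.32 against 1.44 CPM). WT replicate 4 was the lowest of its group, far from the nearest library, for *Ciart* (18.2 against 22.045 CPM) and *Wnt11* (10.8 against 13.963 CPM). Δchat replicate 1 was the highest of its group, far from the nearest library, for *Prg2* (51.5 against 35.2 CPM). Δchat replicate 1 was the lowest of its group, far from the nearest library, for *Creld2* (77.5 against 88.4 CPM) and *Wnt11* (3.05 against 4.61 CPM). Δchat replicate 2 was the highest of its group, far from the nearest library, for *Siglecf* (20.2 against 2.28 CPM), the gamma delta and intraepithelial T cell list (456 against 345 CPM in sum), the regulatory T cell list (959 against 580.0 CPM in sum), the type 2 lymphocyte and ILC2 list (382 against 209 CPM in sum) and the circadian clock list (2431 against 2044 CPM in sum). Δchat replicate 2 was the lowest of its group, far from the nearest library, for *Lynx1* (9.47 against 15.998 CPM) and *Slc16a10* (19.4 against 24.9 CPM). Δchat replicate 3 was the highest of its group, far from the nearest library, for *Aldh1a3* (4.77 against 2.63 CPM). Δchat replicate 3 was the lowest of its group, far from the nearest library, for *Ptprc* (569 against 792 CPM). Δchat replicate 4 was the lowest of its group, far from the nearest library, for *Basp1* (42.1 against 50.6 CPM) and *S1pr2* (8.62 against 10.9 CPM). The strain effect in ileum minus that in colon passed the edgeR test for 9 named genes, at -3.92 for *Alox15*, -1.10 for *Alox5ap*, -2.37 for *Il1a*, -1.79 for *Mmp25*, -1.95 for *Mmp9*, -3.67 for *Rab44*, -3.45 for *Retnlg*, -3.75 for *Serpinb2* and -1.87 for *Wnt11* on the log2 scale.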

How the results depend on the processing

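The 3 calls depended on the settings, while the sign of the 3 genes did not: over the 16 alternatives their log2 fold changes ran from -3.42 to -3.003 for *Alox15*, -2.28 to -1.98 for *Il1a* and -1.70 to -1.49 for *Wnt11*, and they passed in 6, 8 and 7 of them. The number of genes called was 0 with RLE size factors and with the stricter filter, 5 with no filter, 42 from 1 fit over 16 libraries, 358 by DESeq2 and 164 by limma-voom, and ran from 0 to 247 with 1 library left out. Numbers do not pair mice across strains (correlations of deviations -0.322 to 0.00322, and 0 of 4 libraries correlated best with their own number), and the replicate block gave 0 calls. In these 3 edgeR fits with 0 calls, 831 to 838 genes were lower and 425 to 752 higher at an unadjusted p below 0.05. For the difference from colon, 9 genes became 3 with a mouse block and 56 by DESeq2, and 0 to 35 with 1 ileum library left out. The causes were not tested. Of 155 genes named with a test, 134 kept their sign in every alternative. With 1 library left out, the log2 fold changes of genes that changed sign ran from -0.36 to 0.55 for *Apoe*, -0.25 to 0.075 for *Bhlhe41*, -0.21 to 0.38 for *Cd79a*, -0.033 to 0.28 for *Chrna2*, -0.12 to 0.45 for *Csf3r*, -1.39 to 0.099 for *Ear2*, -0.11 to 0.17 for *Garnl3* and -0.25 to 0.57 for *Hcar2*, and -0.071 to 0.074 for *Icam2*, -0.53 to 0.0043 for *Iglc1*, -0.54 to 0.11 for *Il1b*, -0.20 to 0.23 for *Ltf*, -0.20 to 0.020 for *Lynx1*, -0.18 to 0.47 for *Lyz2*, -0.00078 to 0.034 for *Pcna*, -0.32 to 0.083 for *Prg2*, -0.34 to 0.21 for *Ptgs1*, -0.037 to 0.13 for *Ptprc*, -1.75 to 0.33 for *Siglecf* and -0.16 to 0.10 for *Tnfaip3*. Limma-voom gave -0.44 for *Apoe*, 0.16 for *Bhlhe41*, -0.11 for *Chrna2*, -0.17 for *Csf3r*, -0.31 for *Hcar2*, -0.030 for *Icam2*, -0.36 for *Ltf*, -0.17 for *Lyz2*, -0.44 for *Ptgs1* and 0.00043 for *Syvn1*. The replicate block gave -0.082 for *Cd79a* and -0.092 for *Ptgs1*. The fit over 16 libraries gave 0.023 for *Siglecf*.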
